A study of Homo sapiens with 6 samples.

Results

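The 8 translation elongation factor genes EEF1A1, EEF1A2, EEF1B2, EEF1D, EEF1G, EEF2, EIF5A and EIF5A2 were taken by their symbols from the deposited table of 61806 genes. Their pseudogene copies were kept apart. The table holds expression of MG63 cells, an established human osteosarcoma line, in 3 libraries with a stable short hairpin against FTO (shFTO) and 3 libraries with a control hairpin (shNC), each described in the labels as a separate biological replicate. FTO encodes a demethylase of N6-methyladenosine, an internal mark of messenger RNA, and the study asked which transcripts depend on it. All 6 libraries came from the same cell line and were made strand-specific from poly(A)-selected RNA, per the labels, which give neither the hairpin sequences nor whether a clone or a pool of cells was used. The table holds between 93629 and 106245 reads counted to genes per library, which were recovered from FPKM, a level per base of exon scaled to library size.

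These factors run the cycle that adds amino acids to a growing protein. eEF1A, a GTPase encoded by EEF1A1 or EEF1A2, delivers aminoacyl-tRNA to the ribosome. The eEF1B complex, built from the products of EEF1B2, EEF1D and EEF1G, recharges eEF1A with GTP, and eEF2, also a GTPase, moves the ribosome along the message after each peptide bond. eIF5A, named as an initiation factor but acting mainly in elongation and termination, binds stalled ribosomes and carries hypusine, a modified lysine made from the polyamine spermidine. In most cells the mRNAs of EEF1A1, EEF2 and the eEF1B subunits are abundant and belong to the class whose translation follows mTOR signalling. EEF1A2 is the form of adult muscle and neurons, and EIF5A2 is a second eIF5A gene with a restricted pattern that has been studied in tumours.

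EIF5A stood far above every other elongation factor gene in these libraries of MG63 cells, EEF1A1 came next, and the remaining genes had few or no reads. The 8 genes held 10051 of 592760 reads, or 1.7%, and EIF5A alone held 9162 of them (91.2%). EEF1A1 had 841 reads, EEF2 26, EEF1D 13, EEF1A2 7 and EEF1B2 2. EEF1G and EIF5A2 were listed at 0 in all 6 libraries. Of the 8 genes, 3 had reads in every library (EIF5A, EEF1A1 and EEF2) and EIF5A and EEF1A1 averaged 10 or more reads per library. The low counts of EEF2 and the eEF1B subunit genes depart from the abundance of these mRNAs in most cells. In the same libraries 87 cytosolic ribosomal protein genes had 5760 reads together, and 46 initiation factor genes had 85282. The cause was not tested, so the levels describe these libraries and may not give mRNA abundance in MG63 cells.

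No elongation factor gene was called different between shFTO and shNC. In limma on log2(FPKM + 1), 6 of the 8 genes passed the filter (a mean of at least 1 FPKM in 1 group) and 0 of these 6 were called at an adjusted p under 0.05, against a background of 0.0406% of the 4932 genes tested (2 genes). Of these 6, 0 had an unadjusted p under 0.05, against 3.85% of genes tested. On recovered reads, limma-voom called 0 of the 6, and a quasi-Poisson fit called 0 of the 2 with enough reads to enter it, EIF5A and EEF1A1. Counts of 0 among so few genes do not set them apart from that background. The shFTO and shNC libraries overlapped in level for all 6, against 6.59% of genes tested whose groups did not overlap. The median log2 fold change was -0.02 over the 6 and 0.00395 over all genes tested. The intervals were narrow for EIF5A and EEF1A1 and wide for the other 4.

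The knockdown itself was below detection in either group, as FTO was listed at 0 FPKM in all 6 libraries, so FTO gave no check of the labels. A count of 0 allows up to 3 reads over a group, which would put FTO at up to 0.462 FPKM in shFTO and up to 0.486 FPKM in shNC. The cells carried markers of the mesenchymal lineage: 12 of 17 bone and mesenchymal genes had reads, 853 in all, and summed to between 135 and 162 of 100000 reads in shFTO and between 119 and 154 in shNC. COL6A3 (188 reads), COL1A1 (139) and SPARC (121) led, while the bone genes SP7, ALPL, BGLAP, SPP1 and IBSP were at 0. Markers of other cells were nearly absent, with no reads for the 5 epithelial and 5 blood genes, 1 read for the 4 endothelial genes and 1 read (TUBB3) for the 12 muscle and neural genes.

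**Figure D1:**
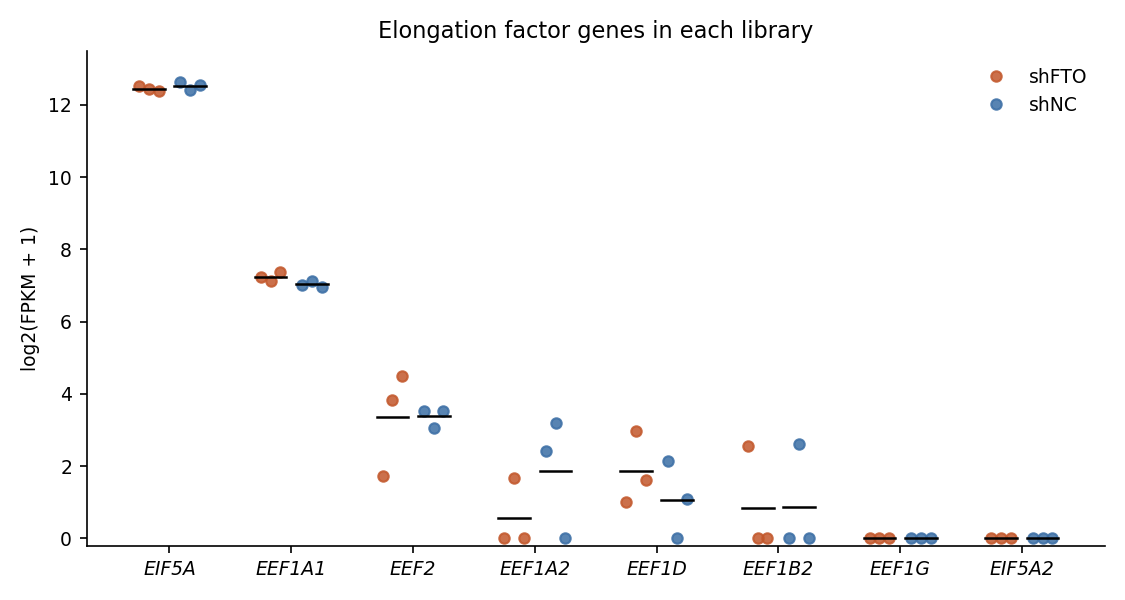
Level of each elongation factor gene in each library, as log2(FPKM + 1), with shFTO libraries left of shNC libraries, 1 point per library and a bar at the group mean of the log values. EIF5A lies between 5371 and 6308 FPKM and EEF1A1 between 124 and 164 FPKM, while EEF1G and EIF5A2 lie at 0 in every library.

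EEF1A1, the gene of the eEF1A form used by dividing cells (ENSG00000156508, GRCh38 chromosome 6, 73489308 to 73525587, minus strand), had 148.72, 138.37 and 164.24 FPKM in shFTO replicates 1, 2 and 3. In shNC replicates 1, 2 and 3 it had 128.5, 138.74 and 124.18 FPKM. The lowest shFTO library fell just under the highest shNC library, so the groups overlapped by that 1 pair. EEF1A1 averaged 150.4 ± 13 FPKM in shFTO and 130.5 ± 7.48 FPKM in shNC (SD, n = 3 each), from 461 reads in shFTO and 380 in shNC. In limma its log2 fold change was 0.20, with an SE of 0.19 (adjusted p = 0.772). The quasi-Poisson fit put the shFTO to shNC ratio at 1.15, with a 95% interval from 0.95 to 1.4, so a 2-fold difference lay outside the interval. Counting error alone would give an interval from 1.01 to 1.33, which leaves out 1. The quasi-Poisson interval is wider because its dispersion is moderated across genes, and over all genes libraries of a group varied by more than counting error. For EEF1A1 itself, the counting-error 95% intervals of all libraries of a group overlapped. Whether it varied by more than counting error was not tested. Of 150 genes averaging 100 or more reads per library, 9 had a log2 change at or above that of EEF1A1 in this fit, itself included. Their median absolute log2 change was 0.07.

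Reads of EEF1A1 are uncertain, because near-identical pseudogene copies can share them. The deposited table lists 42 pseudogene copies of EEF1A1, of which 11 had reads, 622 in all beside the 841 of EEF1A1. EEF1A1P5 (chromosome 9, 133019486 to 133020874, plus strand) had 430 reads, EEF1A1P12 (chromosome 2, 106697331 to 106698676, minus strand) had 145 and EEF1A1P10 (chromosome 7, 144647186 to 144648575, minus strand) had 28. The first 90 bases of the coding sequence of EEF1A1 are shown with the matching stretch of these copies and of EEF1A2, for comparison of the sequences. The sequences are those of GENCODE 29 transcripts on GRCh38, written 5′ to 3′, and capitals mark bases that differ from EEF1A1.
EEF1A1: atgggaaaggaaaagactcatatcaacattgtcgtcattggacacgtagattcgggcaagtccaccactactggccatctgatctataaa
EEF1A1P5: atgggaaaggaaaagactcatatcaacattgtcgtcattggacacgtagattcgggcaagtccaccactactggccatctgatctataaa
EEF1A1P12: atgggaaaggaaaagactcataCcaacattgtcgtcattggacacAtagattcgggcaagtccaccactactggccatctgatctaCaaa
EEF1A1P10: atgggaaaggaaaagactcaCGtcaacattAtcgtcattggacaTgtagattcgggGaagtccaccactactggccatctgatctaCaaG
EEF1A2: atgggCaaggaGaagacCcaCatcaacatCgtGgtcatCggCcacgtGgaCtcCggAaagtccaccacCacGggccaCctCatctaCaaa

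Over the 1389 bases of the EEF1A1 coding sequence, EEF1A1P5 differed by 4 substitutions and no inserted or deleted base. Of the 1340 stretches of 50 bases in that coding sequence, 85.1% occurred letter for letter in EEF1A1P5, as did 69% of stretches of 100 bases and 51.6% of stretches of 150 bases. EEF1A1P12 held 14.7% of the stretches of 50 bases, EEF1A1P10 held 2.61%, and EEF1A2 held none. A coding stretch of 50 bases thus always separates EEF1A1 from EEF1A2 and mostly fails to separate it from EEF1A1P5. No source used here gives the read length or how reads that match several places were treated.

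EEF1A1P5 and EEF1A1P12 also overlapped between the groups in reads. EEF1A1P5 had 94, 54 and 83 reads in shFTO replicates 1, 2 and 3, against 61, 67 and 71 reads in shNC replicates 1, 2 and 3, and the shNC values lay inside the shFTO range. In the quasi-Poisson fit across genes its log2 change was 0.14 (95% interval -0.23 to 0.52). EEF1A1P12 had 22, 20 and 25 reads in shFTO and 30, 23 and 25 reads in shNC, and its log2 change in the same fit was -0.29 (95% interval -0.93 to 0.34). EEF1A1 with all its copies made up 255 ± 28.6 of 100000 reads in shFTO and 237 ± 7.57 in shNC (SD, n = 3 each). The copies took 40.4 ± 3.49% of these reads in shFTO and 44.6 ± 1.61% in shNC, and the ranges of the groups overlapped. Per base of listed length, EEF1A1P5 had 519 FPKM over the 6 libraries and EEF1A1 had 140.5 FPKM, with listed lengths of 1389 and 10063 bases. Per base of its principal mRNA in GENCODE 29, 2303 bases, EEF1A1 stood at 614 in the same unit. The order of EEF1A1 and EEF1A1P5 thus depends on the length used.

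**Figure D2:**
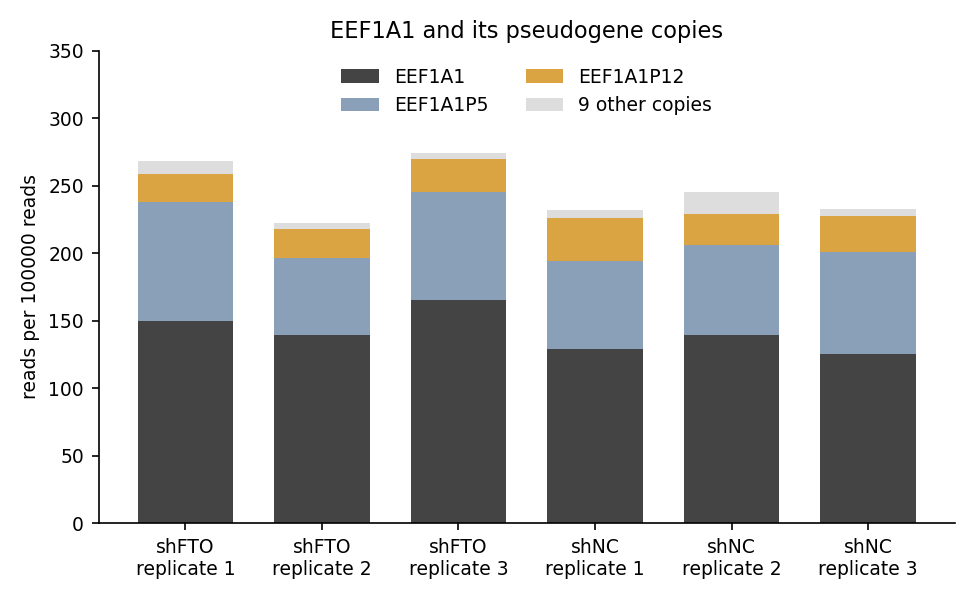
Reads of EEF1A1, EEF1A1P5, EEF1A1P12 and the 9 other copies with reads, stacked, per 100000 reads of each library, with the 3 shFTO libraries left of the 3 shNC libraries. The sum runs from 222 to 274 in shFTO and from 232 to 246 in shNC, and EEF1A1P5 is the second largest part in every library.

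EEF1A2 (ENSG00000101210, chromosome 20, 63488013 to 63499239, minus strand) was close to the limit of detection. It had 0, 2.2 and 0 FPKM in shFTO replicates 1, 2 and 3, from 1 read, and 4.39, 8.21 and 0 FPKM in shNC replicates 1, 2 and 3, from 6 reads. Both groups held libraries at 0. Scaled to library size, the shFTO to shNC ratio of reads was 0.159 with an exact 95% interval from 0.00345 to 1.31, and limma put the log2 fold change at -1.32 (SE 1.08, adjusted p = 0.772). EEF1A2 made up 0.522 ± 0.904% of EEF1A1 plus EEF1A2 in FPKM in shFTO and 2.96 ± 2.81% in shNC (SD, n = 3 each). These shares rest on single libraries: without replicate 2 of its group the share was 0% in shFTO and 1.65% in shNC, and without shNC replicate 3 it was 4.45% in shNC. In reads rather than FPKM it was 0.253% in shFTO and 1.46% in shNC. The muscle and neural marker list, which names tissues that use EEF1A2, had 0 reads in shFTO and 1 in shNC.

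The subunits of the exchange complex eEF1B had 15 reads among the 3 of them. EEF1D, encoding a nucleotide exchange subunit (ENSG00000104529, chromosome 8, 143579697 to 143599541, minus strand), had 1, 6.79 and 2.06 FPKM in shFTO replicates 1, 2 and 3 and 3.39, 0 and 1.14 FPKM in shNC replicates 1, 2 and 3. The groups overlapped, with 9 reads in shFTO and 4 in shNC, a ratio of 2.14 (exact 95% interval 0.597 to 9.51). Its log2 fold change in limma was 0.78 (SE 1.05, adjusted p = 0.812). Of the 9 reads in shFTO, 6 were in replicate 2. Without that library the log2 fold change was 0.23, without shNC replicate 2, which had no reads, it was 0.24, and without shNC replicate 1 it was 1.31.

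EEF1B2, encoding the other exchange subunit (ENSG00000114942, chromosome 2, 206159585 to 206162928, plus strand), had 4.91, 0 and 0 FPKM in shFTO replicates 1, 2 and 3 and 0, 5.17 and 0 FPKM in shNC replicates 1, 2 and 3. Each group thus had 1 read, and the exact 95% interval of the ratio ran from 0.0121 to 74.7. Its pseudogene copy EEF1B2P3 (X chromosome, 24788392 to 24789069, minus strand) had more reads than EEF1B2 itself, 2, 1 and 3 in shFTO replicates 1, 2 and 3 and 0, 1 and 0 in shNC replicates 1, 2 and 3. In FPKM the groups of EEF1B2P3 did not overlap, with 15.68 to 42.77 in shFTO and 0 to 14.6 in shNC. Replicate 2 of each group had 1 read, so those 2 libraries differed only by library size. Groups did not overlap in 6.59% of all genes tested. They also did not overlap for the EEF1A1 copy EEF1A1P6, with 4 reads in shFTO and 0 in shNC. The log2 fold change of EEF1B2P3 in limma was 3.46 (adjusted p = 0.653).

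EEF1G, encoding a structural subunit of the complex (ENSG00000254772, chromosome 11, 62559596 to 62574086, minus strand), was at 0 in all 6 libraries. With 3 reads over a group, the limit that a count of 0 allows, it would stand at 3.74 FPKM in shFTO and 3.93 FPKM in shNC. Over the 6 libraries the limit was 1.92 FPKM, or 1.37% of the level of EEF1A1. In GENCODE 29, 99.9% of the 2716 exonic bases of EEF1G also lie in exons of a second gene on the same strand, ENSG00000255508, which had 0 reads as well. The part of this overlap in the count of 0 was not tested. No other member had more than 16.4% of its GENCODE 29 exonic bases in exons of other genes on its own strand. For EEF1A1 the deposited exonic length is 10063 bases, against 5948 in GENCODE 29, so part of the gene as counted was not compared. On the opposite strand EEF1D shared 34% of its bases with other genes and EIF5A 8.56%, and no source used here states whether the counting used strand. The genes with the largest such overlap with EEF1D and EIF5A had 0 reads.

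EEF2, the gene of the translocation factor and the target of diphtheria toxin (ENSG00000167658, chromosome 19, 3976056 to 3985463, minus strand), had 2.34, 13.22 and 21.63 FPKM in shFTO replicates 1, 2 and 3. In shNC replicates 1, 2 and 3 it had 10.54, 7.39 and 10.62 FPKM. The shFTO libraries held both the lowest and the highest value, 9.24-fold apart, and the shNC libraries lay between them. These values rest on 1, 5 and 9 reads in shFTO and 4, 3 and 4 reads in shNC. The ratio of summed reads was 1.3 (exact 95% interval 0.557 to 3.12) and the limma log2 fold change, taken from means of log values, was -0.02 (SE 0.65, adjusted p = 0.9997). These differ in sign, and without shFTO replicate 1, the library with 1 read, the log2 fold change was 0.79.

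EIF5A (ENSG00000132507, chromosome 17, 7306999 to 7312463, plus strand) had 5854, 5589.6 and 5371 FPKM in shFTO replicates 1, 2 and 3. In shNC replicates 1, 2 and 3 it had 6308, 5447 and 6018 FPKM. The 2 highest libraries were shNC and the lowest was shFTO, but shNC replicate 2 lay below 2 of the 3 shFTO libraries, so the groups overlapped. EIF5A averaged 5605 ± 242 FPKM in shFTO and 5924 ± 438 FPKM in shNC (SD, n = 3 each), from 4574 reads in shFTO and 4588 in shNC. In limma its log2 fold change was -0.08, with an SE of 0.05 (adjusted p = 0.772). The quasi-Poisson fit gave a ratio of 0.948 with a 95% interval from 0.877 to 1.03, narrower than that of EEF1A1, the only other member in this fit. The interval from counting error alone, 0.91 to 0.988, leaves out 1. Counting-error 95% intervals of shNC replicate 1 (6005 to 6622 FPKM) and shNC replicate 2 (5175 to 5730 FPKM) did not overlap. Other pairs of libraries within a group overlapped. Over all 6 libraries the SD was 6.28% of the mean, against 10.3% for EEF1A1 and 58.6% for EEF2. EIF5A, EEF1A1 and EEF2 averaged 1527, 140 and 4.33 reads per library. Counting error weighs more at low read numbers, so these shares do not compare how steady the genes were.

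EIF5A2 (ENSG00000163577, chromosome 3, 170888418 to 170908644, minus strand) had no reads in any library. The limit over a group was 1.78 FPKM in shFTO and 1.87 FPKM in shNC, and over all 6 libraries it was 0.913 FPKM, or 0.0158% of the level of EIF5A. EIF5AL1 (chromosome 10, 79512533 to 79516440, plus strand), an intronless copy of EIF5A, had 34 reads. Its level was 7.23, 24.48 and 9.89 FPKM across shFTO replicates 1, 2 and 3, against 18.98, 12.67 and 16.4 FPKM across shNC replicates 1, 2 and 3, and the shNC values lay inside the shFTO range. The first 90 coding bases of EIF5A are shown with the same stretch of EIF5AL1 and EIF5A2, from GENCODE 29 on GRCh38 and written 5′ to 3′, since they show which of these genes short reads can tell apart. Capitals mark bases that differ from EIF5A.
EIF5A: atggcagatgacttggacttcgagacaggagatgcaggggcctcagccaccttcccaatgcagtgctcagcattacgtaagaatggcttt
EIF5AL1: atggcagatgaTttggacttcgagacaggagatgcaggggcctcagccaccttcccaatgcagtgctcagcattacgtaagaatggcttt
EIF5A2: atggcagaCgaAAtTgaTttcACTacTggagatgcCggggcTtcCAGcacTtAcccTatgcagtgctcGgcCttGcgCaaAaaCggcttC

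EIF5AL1 differed from the 465 coding bases of EIF5A by 5 substitutions and held 66.6% of its 416 stretches of 50 bases. Short reads within these shared stretches cannot be assigned with certainty to either gene. The rest of the EIF5AL1 transcript, which has 3840 bases, was not compared. How many of the 34 reads listed for EIF5AL1 lie in shared sequence is therefore not known. EIF5A2 differed from EIF5A by 24 of the 90 bases shown and held none of the 416 stretches. The table lists 3 pseudogene copies of EIF5A and 1 of EIF5A2, all at 0 reads.

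**Figure D3:**
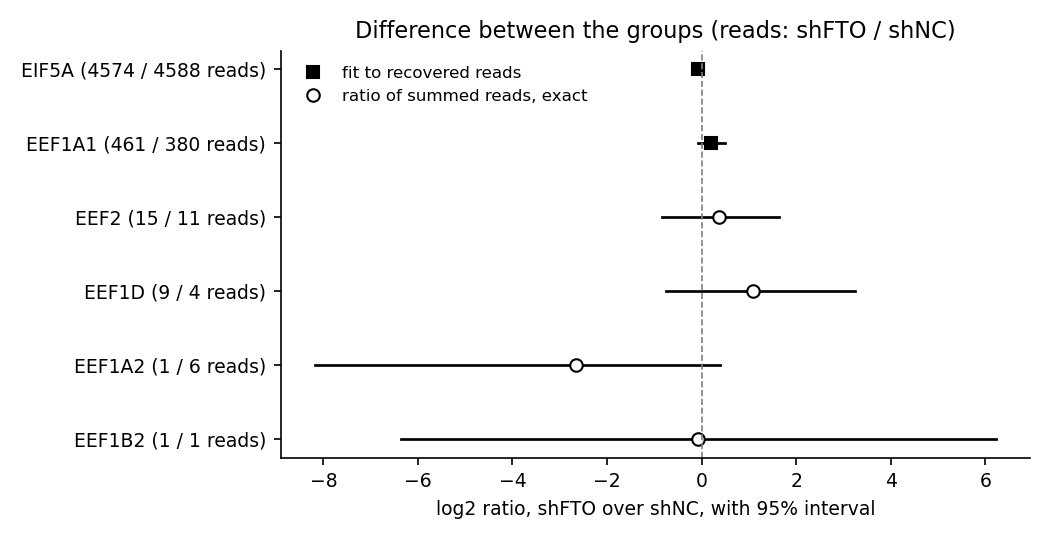
Difference between shFTO and shNC for the 6 genes with reads, as a log2 ratio with its 95% interval and the reads of each group (shFTO / shNC). Squares (EIF5A and EEF1A1) are the quasi-Poisson fit, and open circles (the other 4 genes) the ratio of summed reads with an exact interval for counting error only; each interval drawn includes 0, and it narrows from EEF1B2 with 1 read in each group to EIF5A with 4574 and 4588.

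FPKM is a level per base of deposited exonic length, and the ratio of that length to mRNA length differs between genes. Ordered by FPKM, the genes ran EIF5A, EEF1A1, EEF2, EEF1A2, EEF1D and EEF1B2, with EEF1G and EIF5A2 at 0. The lowest EIF5A library stood at 5371 FPKM and the highest EEF1A1 library at 164 FPKM, and the mean level of EIF5A was 41 times that of EEF1A1. EEF1A1 and EEF2 were also apart, at 124 FPKM or more and 21.63 FPKM or less. From EEF2 downwards, neighbours overlapped over the 6 libraries and their order was not resolved. Among 7057 genes with reads, EIF5A was at rank 4 by FPKM, EEF1A1 at rank 203 and EEF2 at rank 985. Ranks by mRNA length were not computed.

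The distance between EIF5A and EEF1A1 depends on the length used. The deposited exonic length covers every exon of a gene, 10063 bases for EEF1A1 and 2685 for EIF5A, while the principal mRNAs in GENCODE 29 have a median length of 2303 and 1351 bases. Per base of principal mRNA, EEF1A1 stood at 614 ± 63.3 and EIF5A at 11457 ± 719 (mean ± SD, n = 6 libraries, in the same unit), a ratio of 18.7. The corresponding levels were 13.9 ± 8.16 for EEF2, 9.82 ± 9.98 for EEF1D, 5.91 ± 7.95 for EEF1A2 and 3.66 ± 5.67 for EEF1B2. On this scale EEF1D stood above EEF1A2, while EIF5A, EEF1A1 and EEF2 kept their places.

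Set beside the other large groups of translation genes, the elongation factor genes ran from 0 to 5765 FPKM. Their median level over the 6 libraries was 2.43 FPKM, against 8.02 FPKM for 87 cytosolic ribosomal protein genes and 1.9 FPKM for 46 initiation factor genes. EIF5A stood above every ribosomal protein gene, of which RPS27 was highest at 734 FPKM, and below 2 initiation factor genes. EEF1A1 stood below 4 ribosomal protein genes and 7 initiation factor genes on the deposited exonic length and without the reads of its copies. Its place with mRNA lengths or with the copies was not computed for these groups. Since poly(A) RNA of whole cultures was measured, fewer cells with a transcript and less of it per cell cannot be told apart.

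**Figure D4:**
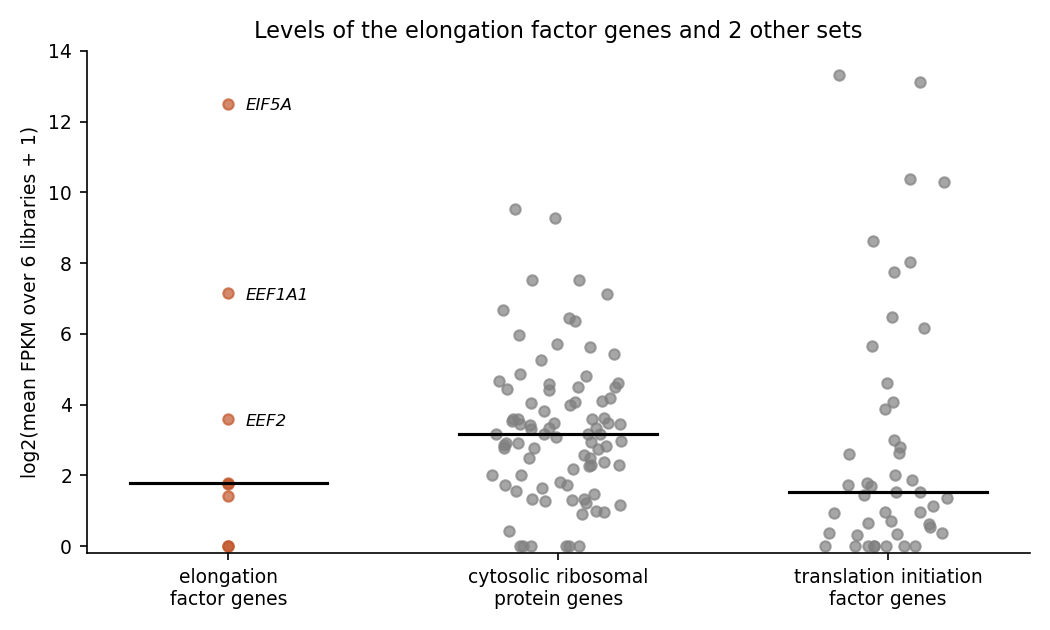
Mean level over the 6 libraries, as log2(mean FPKM + 1), of each elongation factor gene, each cytosolic ribosomal protein gene and each translation initiation factor gene, with a bar at the median. EIF5A (5765 FPKM) lies above all ribosomal protein genes and EEF1A1 (140.5 FPKM) above all but 4 of them on the deposited exonic length.

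Other genes of the elongation and termination pathway gave 0 calls. Termination, rescue and recycling factors were the best covered: 9 of 11 genes had reads, 9 were tested, and limma called 0 (0 had an unadjusted p under 0.05), with a median log2 fold change of -0.01. Over all genes tested the shares were 0.0406% and 3.85%, so such counts are near the background. ETF1, encoding the release factor eRF1 that reads stop codons, held 3171 of the 3442 reads of this list, with 1176 ± 88.3 FPKM in shFTO and 1184 ± 97.6 FPKM in shNC (SD, n = 3 each). ETF1 ranged from 1085 to 1261 FPKM in shFTO and from 1124 to 1297 FPKM in shNC, and its log2 change in the quasi-Poisson fit was -0.01 (95% interval -0.18 to 0.16). GSPT1, encoding its GTPase partner eRF3, had 54 reads in shFTO and 45 in shNC, MCTS1, a recycling factor gene, had 39 in shFTO and 21 in shNC, and ABCE1, encoding the ATPase that splits ribosomes, had 27 in shFTO and 28 in shNC.

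The enzymes that modify elongation factors were almost unseen. Of 16 genes, 5 had reads, 6 in all, and 1 was tested. DHPS, encoding the enzyme that starts hypusine synthesis on eIF5A, had 2 reads in shFTO and 0 in shNC, and EEF2K, encoding the kinase of eEF2, had 0 reads in shFTO and 1 in shNC. DOHH, encoding the enzyme that completes hypusine, had 0 reads in either group. A list of 5 genes, made of 4 eEF1 partner and selenocysteine elongation genes and EIF5AL1, had 39 reads, 34 of them in EIF5AL1. Of the other 4 genes, EEF1E1 had 1 read in shFTO and 2 in shNC, SECISBP2 had 0 in shFTO and 2 in shNC, and EEFSEC and VARS1 had none, and EEF1E1 was the 1 tested. Of 5 mitochondrial elongation factor genes, 3 had reads and 2 were tested, and TUFM, encoding the mitochondrial counterpart of eEF1A, had 4 reads in each group. Of the 5 genes tested in these 3 lists, limma called 0 and 0 had an unadjusted p under 0.05, again against 0.0406% and 3.85% of all genes tested.

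Over the 6 libraries, the 3 genes whose log2 FPKM ran most like that of EIF5A were SET (Pearson r = 0.938), MEX3C (0.809) and YBX1 (0.802), among 149 other genes that averaged 100 or more reads per library. EEF1A1 stood at rank 136 of the 149, with r = -0.71. These values describe 6 points that share their library totals, and EIF5A itself varied by 1.17-fold between its lowest and highest library.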

How the data were processed

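Per the file headers the deposited values are FPKM per gene, with a symbol, position, strand and exonic length in bases for each Ensembl gene ID. The submitters' processing notes name GRCh38 and, without roles, StringTie 1.3.3b, HTSeq 0.6.1, HISAT2 2.2.1, DESeq2 1.50.2 and FastQC 0.10.1. Columns marked NC or sh with a number were matched to shNC and shFTO replicates by name. FPKM times length gave whole reads within 0.05 read for 100% of values above 0 at 1 total per library, so these totals served as depth. Intervals and limits of 3 reads cover counting error only.

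Genes averaging 1 FPKM or more in either group were tested on log2(FPKM + 1) with limma 3.58.1 (R 4.3.3; trend, robust, group only, Benjamini-Hochberg over all genes tested). A fold change on that scale understates changes of low genes. A group-only quasi-Poisson fit to recovered reads (genes with at least 30 reads, moderated dispersion, median 1.79) gave ratios and intervals; exact intervals came from SciPy 1.17.1. Libraries of a group differed by more than sampling noise (chi-square over degrees of freedom at least 1.79). GENCODE 29 (GRCh38) held 94.3% of gene IDs, 99.9% of them on the same chromosome and strand; it supplied transcripts, exon overlaps and mRNA lengths, the median over principal transcripts. Pseudogene copies are genes named as a member followed by P. All 8 members were named, with up to 4 genes by read number from each pathway list and the 3 copies with most reads. EEF1B2P3, EEF1A1P6 and DOHH were named after their values were seen. Members and lists were chosen with earlier results of these data known.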

Additional observations from a re-analysis of the deposited data

How the results depend on the processing

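In each of 15 alternative settings 0 elongation factor genes were called. The setting at an adjusted p under 0.01 rereads the main fit, so it could call none. The quasi-Poisson fit and the filter of 10 reads per library each tested 2 members. The log2 fold changes of EEF1A1 (0.14 to 0.26), EIF5A (-0.14 to -0.03), EEF1D (0.23 to 1.75) and EEF1A2 (-2.45 to -0.66) kept their direction in every setting that tested them. All settings reuse the same reads, 13 for EEF1D and 7 for EEF1A2. The lowest adjusted p of EEF1A1, EEF1A2 or EIF5A in any setting was 0.678. EEF1B2, at 1 read in each group, had -0.02, ran from -0.88 to 0.85 as 1 library was left out, and reversed to 0.85 without shNC replicate 2 and to 0.41 without shFTO replicate 2 or 3. EEF2, at -0.02, ran from -0.59 to 0.79 and reversed to 0.05 without shNC replicate 1, to 0.06 without shNC replicate 3 and to 0.79 without shFTO replicate 1. Over all genes, limma called 2. It called 7 with a pseudocount of 0.1, 9 with no filter, 0 of 705 with at least 10 reads per library and 1 at an adjusted p under 0.01; limma-voom called 5, the quasi-Poisson fit 0, and leaving out 1 library gave 2 to 9 (9 without shNC replicate 2, 7 without shNC replicate 3 and 8 without shFTO replicate 1). The cause of these shifts was not tested.

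With the replicate block limma called 17 genes, none of them a member. Same-numbered libraries had correlations of -0.0029, 0.039 and -0.012 in their deviations from the group mean over 705 genes, and 1 of 3 matched its own number best. At this depth counting noise can hide a pairing, so these values do not settle whether equal numbers mark paired libraries.

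Reads of the members per 100000 were 1665 ± 54.2 in shFTO and 1729.6 ± 112 in shNC. They were 160.1 in shFTO and 139 in shNC without EIF5A, and 1771 in shFTO and 1835 in shNC with pseudogene copies added. EEF1A1 stood at 151 in shFTO and 131 in shNC per 100000 reads, and at 255 in shFTO and 237 in shNC with its copies. The last alternative and the use of mRNA length were chosen after seeing the data. Per principal mRNA length the mean level was 614 for EEF1A1, 5.91 for EEF1A2, 9.82 for EEF1D and 11457 for EIF5A, against 140.5, 2.47, 2.4 and 5765 FPKM. Besides EIF5A and EEF1A1, 4 members had 26 reads or fewer and 2 had none, which limits what their comparison can show. Why EEF1G and EIF5A2 were at 0 was not tested.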
